A study of Homo sapiens with 48 samples.

Results

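Keratin genes were described in the RNAseq of PSN1 cells, an established human pancreatic cancer cell line. A gene was taken as a keratin gene when its symbol in the deposited table was KRT followed directly by a number, which gave 55 of the 20241 genes of the table, 29 of type I and 26 of type II. The 9 libraries were 3 replicates each of parental, maintained (TalaR-M) and drug free (TalaR-DF) cells. TalaR-M cells were PSN1 cells with acquired resistance to Talazoparib, an inhibitor of PARP enzymes, and were maintained in medium with it. The labels give a dose of 50 nM and a time of 4 months. According to the paper the resistant cells were selected in rising concentrations, so that the dose may not have been the same throughout. TalaR-DF cells came from resistant PSN1 cells moved to drug free medium, for 4 weeks according to the methods. The paper reports that PSN1 cells had by then regained almost the parental sensitivity to Talazoparib. TalaR-M and TalaR-DF cells are called resistant groups or libraries below by their origin, not by their sensitivity at harvest. Apart from the drug, all 3 groups grew in the same medium with serum, and the sources used here give no transgene or knockdown in them. Whether the resistant cells are a pool or a clone is not given. The sources also do not say whether replicates were separate cultures, so that p-values measure the spread between these samples, which may be technical.

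Keratins are the intermediate filament proteins of epithelial cells. A filament is built from pairs of an acidic type I and a basic type II keratin, and which pairs a cell makes follows its kind of epithelium. Simple epithelia such as the pancreatic duct are known for KRT8 with KRT18, to which ductal cells add KRT7 and KRT19, whereas KRT5 with KRT14 mark basal cells of the epidermis, KRT1 with KRT10 its upper layers, and a further large set builds the hair. Filaments are tied to desmosomes and hemidesmosomes by plakins and plakophilins. Loss of keratins and gain of vimentin are widely used as signs of epithelial-mesenchymal transition (EMT).

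Levels are given as deposited, in log2 CPM, where CPM is the usual unit for a gene's reads relative to the size of its library. The deposited values stop at 0, so that a value of 0 stands for a level of at most 1 CPM, called the limit here. Between 8387755 and 14973847 reads per library lay on genes above the limit, and 1 CPM was worth 7.54 to 15.7 reads. The library size behind the CPM, recovered from the values, was 7538429 in TalaR-M replicate 2, below its 8387755 reads on such genes. Its CPM were thus scaled, and its levels lie above a plain share of its reads. In every other library this size exceeded the reads on such genes, so that a scaling cannot be seen this way. TalaR-M replicate 2, the shallowest library, stood apart. Its log2 values correlated across genes at 0.78 with either other TalaR-M replicate, against 0.993 to 0.997 for other pairs of replicates, and the part of its values that followed transcript length and GC content smoothly had an SD of 0.92 against at most 0.23 in the other libraries. Changes of genes that involve TalaR-M cells are therefore given with and without this library. Among markers of the pancreatic duct, 8 were tested, KRT7, KRT8, KRT18 and KRT19 among them. All 4 endocrine markers were at the limit in all 9 libraries, 2 of 5 acinar and 2 of 5 leukocyte markers were tested, and 5 of 6 keratinocyte markers were at the limit throughout. All 5 fibroblast markers were tested, with a summed level of 1633 to 1705 CPM in parental, 932.9 to 2988 CPM in TalaR-M and 841.7 to 951.8 CPM in TalaR-DF cells, most of it COL3A1. The others did not follow the sum. In mean log2 CPM of parental, then TalaR-M, then TalaR-DF libraries, COL1A2 was at 7.86, 0 and 3.77, PDGFRB at 6.15, 3.22 and 2.87, and LUM at 5.28, 1.78 and 3.51, while DCN was above the limit in TalaR-M libraries alone, with a mean of 1.55. Their part in the results was not tested.

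Of the 55 keratin genes, 10 were above the limit in at least 3 libraries and were tested, among 12471 genes tested in all. These were KRT10, KRT15, KRT17, KRT18 and KRT19 of type I and KRT3, KRT7, KRT8, KRT79 and KRT80 of type II. A total of 42 were at the limit in all 9 libraries, including the epidermal keratins KRT1, KRT5 and KRT14 and the mucosal keratins KRT4 and KRT13. None of the 9 keratins of the hair follicle sheath and none of the 17 of the hair shaft was tested. The remaining 3 were above the limit in too few libraries. KRT16, a stress keratin of epidermis, had 1.64 log2 CPM in TalaR-M replicate 2, KRT86 had 0.18 in the same library and KRT78 had 0.04 in parental replicate 1, and each was at the limit elsewhere. All 10 tested keratins were above the limit in all 3 parental libraries, 7 in all 3 TalaR-M libraries and 6 in all 3 TalaR-DF libraries.

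A change counted as a call when it reached 2-fold and limma, fitted to all 9 libraries, gave it an adjusted p (Benjamini-Hochberg, over all genes tested) under 0.05. TalaR-M against parental cells gave 2 called keratins, KRT19 higher and KRT79 lower, where 13.3% of all genes tested were called (5.53% higher and 7.72% lower). TalaR-DF against parental cells gave 3, and KRT7, KRT15 and KRT79 were all lower, where 9.73% of all genes were called (2.25% higher and 7.49% lower). TalaR-M against TalaR-DF cells gave 3, and KRT7, KRT15 and KRT19 were all higher in TalaR-M cells, where 6.93% of all genes were called (5.29% higher and 1.64% lower). Without TalaR-M replicate 2 the counts were again 2, 3 and 3, with the same genes, beside 13.9%, 11.4% and 8.36% of all genes. The median log2 fold change of the tested keratins was 0.29, -0.60 and 0.93 in these comparisons, beside -0.09, 0.01 and -0.09 over all genes tested, and without replicate 2 it was 0.03, -0.60 and 0.59. The -0.60 is the midpoint of KRT3 and KRT17, which entered the test only through the parental libraries and could only be lower, so that nothing is read from it. Rescaling the libraries by their median ratio moved the median of all genes from -0.09 to 0.01 for TalaR-M against parental cells and from -0.09 to 0.03 for TalaR-M against TalaR-DF cells. Counted without a test, the 3 values of one group lay all above those of the other in 7 keratins for TalaR-M against parental cells (4 higher and 3 lower), where this held for 49.8% of all genes (20.9% higher and 28.8% lower). It held in 6 for TalaR-DF against parental cells, all lower, where it held for 68.5% of all genes (35.3% higher and 33.2% lower), and in 6 for TalaR-M against TalaR-DF cells, all higher, where it held for 40.8% (16.7% higher and 24.1% lower). KRT3 and KRT17 are again among those lower than in parental cells. The first pair of comparisons share the parental libraries and the others share a resistant group, so that they are not independent of each other.

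**Figure D1:**
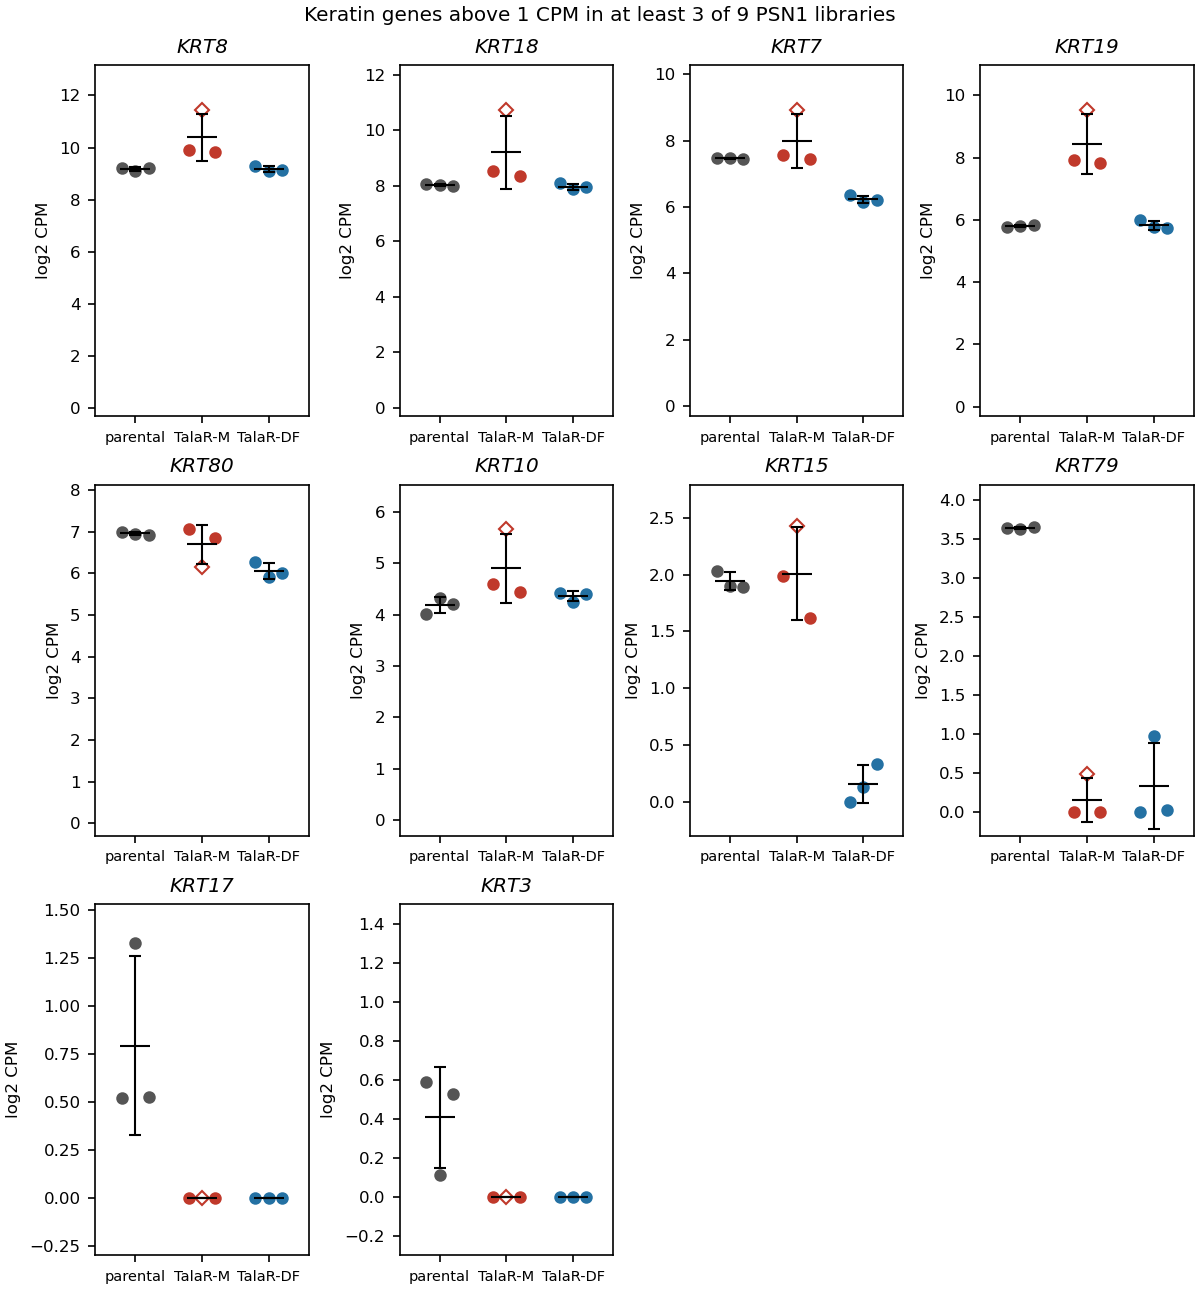
Level of each of the 10 tested keratin genes (vertical axis, log2 CPM) in the 3 libraries of each group (horizontal axis). Points are libraries, the open diamond is TalaR-M replicate 2, and bars give the mean and SD (n = 3). KRT19 was above 7.8 in the 3 TalaR-M libraries and below 6 elsewhere, whereas KRT79 was at 3.62 to 3.64 in parental cells and below 1 elsewhere.

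KRT19, the small type I keratin of ductal epithelium, rose in TalaR-M cells and stood near the parental level in TalaR-DF cells. Its level was 5.77, 5.80 and 5.83 log2 CPM in parental replicates 1 to 3, 7.92, 9.53 and 7.81 in TalaR-M replicates 1 to 3 and 5.99, 5.77 and 5.73 in TalaR-DF replicates 1 to 3. The lowest TalaR-M library thus lay above the highest library of either other group, while the parental and TalaR-DF values overlapped. TalaR-M cells had 6.16-fold the parental level (log2 fold change 2.62, SE 0.41, adjusted p = 0.00233), and 4.19-fold without TalaR-M replicate 2 (log2 fold change 2.07, adjusted p = 1.92e-09). Against TalaR-DF cells the log2 fold change was 2.59 (adjusted p = 0.00505), and 2.04 without replicate 2 (adjusted p = 7.57e-09). TalaR-DF and parental cells differed by 0.03 on the log2 scale (95% interval -0.90 to 0.96, adjusted p = 0.987), or from -0.13 to 0.19 as the interval without TalaR-M replicate 2, whose spread enters the fit of every comparison.

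KRT7, the type II keratin of ductal and glandular epithelium, was lower in TalaR-DF cells than in both other groups. It was at 7.48, 7.47 and 7.45 log2 CPM in the parental libraries, at 7.58, 8.93 and 7.45 in the TalaR-M libraries and at 6.36, 6.14 and 6.21 in the TalaR-DF libraries. Every TalaR-DF library lay below every other library, and TalaR-M replicates 1 and 3 lay within 0.2 of the parental ones. TalaR-DF cells were 2.35-fold below parental cells (log2 fold change -1.23, SE 0.35, adjusted p = 0.0426, and 2.08e-08 without TalaR-M replicate 2). The call was lost in a fit that left out any single parental or TalaR-DF library and kept TalaR-M replicate 2 (adjusted p 0.102 to 0.133), at log2 fold changes of -1.18 to -1.29. TalaR-M exceeded TalaR-DF cells by 1.75 on the log2 scale (adjusted p = 0.015), and by 1.28 without replicate 2 (adjusted p = 7.55e-08). TalaR-M differed from parental cells by 0.52 (adjusted p = 0.298), and by 0.05 without replicate 2 (95% interval -0.11 to 0.21).

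KRT8 and KRT18, the partners of the basic filament of simple epithelium, were the most abundant keratins per transcript length in every library. KRT8 was at 9.23, 9.11 and 9.20 log2 CPM in parental cells, at 9.92, 11.44 and 9.83 in TalaR-M cells and at 9.29, 9.09 and 9.13 in TalaR-DF cells. KRT18 followed with 8.08, 8.04 and 8.0 in parental, 8.52, 10.73 and 8.36 in TalaR-M and 8.09, 7.88 and 7.95 in TalaR-DF cells. For both genes the 3 TalaR-M libraries lay above all others, and TalaR-M replicate 2 lay far above the other 2. Neither gene was called in any comparison. For TalaR-M against parental cells the log2 fold change of KRT8 was 1.22 (SE 0.39, adjusted p = 0.0539) with all libraries and 0.70 (adjusted p = 1.49e-05) without replicate 2, so that it missed the adjusted p with that library and 2-fold without it. For KRT18 the same values were 1.17 (SE 0.55, adjusted p = 0.157) and 0.41 (adjusted p = 0.000641). TalaR-DF differed from parental cells by -0.01 in KRT8 (95% interval -0.90 to 0.88) and by -0.07 in KRT18 (95% interval -1.32 to 1.19). Without TalaR-M replicate 2 these intervals were -0.17 to 0.14 and -0.21 to 0.08.

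The loci of this pair bear on how well their reads can be told apart. In GENCODE 44 on GRCh38, KRT8 lies on the minus strand at chr12:52897187-52949954 and KRT18 on the plus strand at chr12:52948871-52952906, and the gene models overlap by 1084 bases. The library kit marked the strand, but whether the counting used it is not given in the sources used here. The same annotation lists 51 pseudogenes named after KRT8, 68 named after KRT18 and 5 named after KRT19, so that reads of these genes may have been divided or dropped in the authors' counting, and their levels are uncertain to that extent.

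KRT79, a type II keratin known from the sebaceous duct and the upper hair follicle, gave the largest change of any tested keratin in either comparison with parental cells. It was at 3.64, 3.62 and 3.64 log2 CPM in parental cells, from 164 to 182 reads per library. In TalaR-M replicates 1 and 3 it was at the limit, and replicate 2 had 0.49, from 10 reads. In TalaR-DF cells it was at the limit, 0.97 and 0.03 in replicates 1 to 3. All 6 resistant libraries thus lay below all 3 parental libraries, and cells without the drug did not lie nearer to parental cells beyond their spread. The log2 fold change was -3.47 in TalaR-M (SE 0.27, adjusted p = 4.58e-05; without replicate 2, -3.63) and -3.30 in TalaR-DF cells (adjusted p = 8.06e-05), which understates the fall because 3 of the 6 values were at the limit. TalaR-M and TalaR-DF cells differed by -0.17 (95% interval -0.80 to 0.45), and by -0.34 without replicate 2.

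The bases before the start of KRT79, the keratin that fell most, are shown beside those of KRT8, the most abundant keratin, from the same chromosome 12 cluster. RefSeq promoter sequences on GRCh38.p14 matched 4 of the 10 tested keratins, KRT3, KRT8, KRT10 and KRT79. Windows from 250 bases before to 50 bases after the start were searched on both strands for the E-box CAGGTG, the AP-1 motif TGANTCA, the TATA box TATAAA and the GC box GGGCGG, which do not overlap each other in these windows. The 250 bases before the KRT79 start are at chr12:52834312-52834561 on the minus strand and those of KRT8 at chr12:52926470-52926719 on the minus strand, both printed 5′ to 3′ with motifs in capitals.
KRT79: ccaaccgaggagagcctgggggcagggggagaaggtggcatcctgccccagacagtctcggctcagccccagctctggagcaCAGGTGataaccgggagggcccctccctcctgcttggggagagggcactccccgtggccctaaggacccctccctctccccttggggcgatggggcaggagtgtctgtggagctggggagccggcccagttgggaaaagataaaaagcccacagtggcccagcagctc
KRT8: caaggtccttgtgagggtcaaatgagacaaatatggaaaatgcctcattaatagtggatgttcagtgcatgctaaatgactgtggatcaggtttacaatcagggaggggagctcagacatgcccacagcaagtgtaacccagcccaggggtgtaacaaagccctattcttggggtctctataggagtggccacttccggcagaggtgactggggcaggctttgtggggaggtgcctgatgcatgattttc
The KRT79 window held an E-box 168 bases before the start, the sequence in capitals, a motif found in 20.6% of 35116 promoters of the same length. The KRT8 window held none of the 4 motifs. RefSeq places this KRT8 start inside the GENCODE gene, which extends upstream of it, so that the gene has other starts. Which start gives the KRT8 RNA of these cells was not tested, so that this window may not be its main promoter. TATAAA, found in 11.5% of all promoters, lay 29 bases before the start of KRT10 and 30 bases before that of KRT3. The GC box, found in 45.0% of all promoters, and the AP-1 motif, found in 7.71%, were in none of the 4 windows. These matches describe letters only, and no binding was measured here.

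KRT15, a type I keratin of basal cells, fell in TalaR-DF but not in TalaR-M cells. Its level was low, at 2.03, 1.90 and 1.89 log2 CPM in parental cells, 1.98, 2.43 and 1.62 in TalaR-M cells and 0, 0.13 and 0.33 in TalaR-DF cells. The TalaR-DF libraries held at most 15 reads each and lay below all others, whereas the parental and TalaR-M values overlapped. TalaR-DF cells were below parental cells by a log2 fold change of -1.79 (SE 0.21, adjusted p = 0.000603), which understates the fall since TalaR-DF replicate 1 was at the limit. TalaR-M exceeded TalaR-DF cells by 1.86 (adjusted p = 0.000922), and by 1.65 without replicate 2 (adjusted p = 7.37e-06). TalaR-M and parental cells differed by 0.07, and by -0.14 without replicate 2, so that the sign rested on that library.

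KRT80, a type II keratin of many epithelia, was lower in TalaR-DF than in parental cells. It was at 7.0, 6.94 and 6.93 log2 CPM in parental, 7.06, 6.16 and 6.86 in TalaR-M and 6.27, 5.91 and 6.0 in TalaR-DF cells. TalaR-DF cells lay below parental cells in every library, with a log2 fold change of -0.89 (SE 0.23, adjusted p = 0.0293; without TalaR-M replicate 2, 4.46e-06) that was short of 2-fold. Among the 6 keratins above the limit in all 9 libraries, KRT80 has the longest transcript, 3873 bases, and was the one lower in TalaR-M replicate 2 than in its other replicates. TalaR-M exceeded TalaR-DF cells by 0.63 (adjusted p = 0.114), and by 0.90 without replicate 2 (adjusted p = 2.13e-05).

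KRT10, the type I keratin of upper epidermal layers, was detected without its usual partner KRT1. It was at 4.02, 4.33 and 4.20 log2 CPM in parental, 4.59, 5.67 and 4.44 in TalaR-M and 4.41, 4.25 and 4.41 in TalaR-DF cells. The TalaR-M libraries lay above all others, and TalaR-DF overlapped parental cells. It was not called in any comparison, and TalaR-M differed from parental cells by 0.72 (adjusted p = 0.126), or 0.33 without replicate 2.

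KRT17, a keratin of activated basal cells, and KRT3, a keratin of corneal epithelium, were near the limit. KRT17 had 0.52, 1.33 and 0.52 log2 CPM and KRT3 0.59, 0.11 and 0.52 in the parental libraries, and both were at the limit in all 6 resistant libraries. Both entered the test only through the parental libraries and so had to differ, and their change is given as a description. The parental values came from 18 to 34 reads of KRT17 and from 14 to 21 reads of KRT3. KRT17 shares sequence with 8 annotated pseudogenes.

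**Figure D2:**
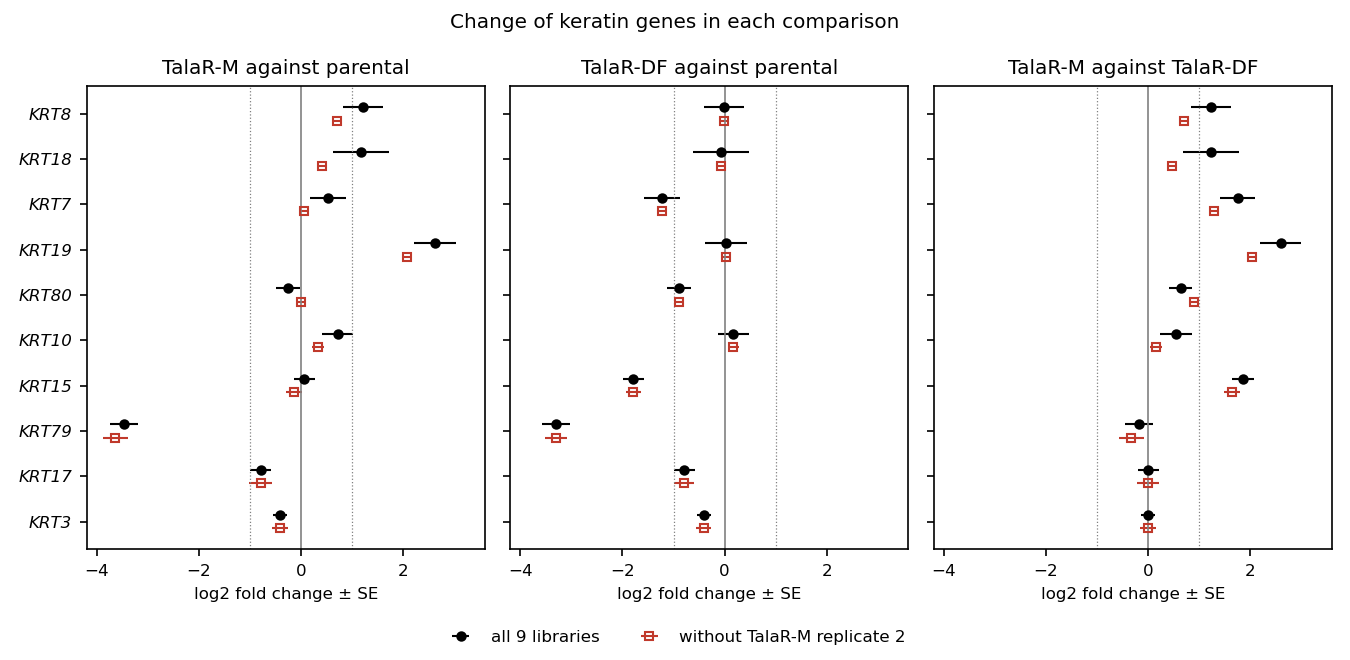
Log2 fold change of the 10 tested keratins (vertical axis) in the 3 comparisons, with bars of 1 SE. Black points are the fit to all 9 libraries, open squares the fit without TalaR-M replicate 2, and dotted lines mark 2-fold. KRT19 stayed beyond 2-fold for TalaR-M against either other group in both fits, whereas KRT8 and KRT18 came to lie within 2-fold without that library.

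The size of the TalaR-M values turned on replicate 2 to different degrees. It exceeded the mean of replicates 1 and 3 by 2.29 on the log2 scale in KRT18, by 1.66 in KRT19, by 1.57 in KRT8, by 1.41 in KRT7 and by 1.16 in KRT10, and fell below it by 0.80 in KRT80. Among all genes tested these deviations ranked at percentiles 98.1, 94.3, 93.4, 91.7, 88.2 and 35.6. Once the smooth dependence on length and GC was taken out of each library, a setting chosen after seeing the data, KRT19 was at 8.07, 8.24 and 8.01 log2 CPM in the TalaR-M libraries and KRT7 at 7.71, 7.85 and 7.62. KRT18 still stood apart in replicate 2, with 8.61, 9.68 and 8.54, and so did KRT10, with 4.52, 5.58 and 4.49, and KRT8, with 10.00, 10.66 and 9.96. KRT8 was then called in TalaR-M against parental cells (log2 fold change 1.00, adjusted p = 0.00233).

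Levels of different keratins were compared per length, as CPM divided by the length of the GENCODE canonical transcript in kb. In parental cells the order was KRT8 with 325.5 ± 14.1 CPM per kb (SD, n = 3, as for the following values), KRT18 with 186.0 ± 5.36, KRT7 with 108.6 ± 1.35, KRT19 with 40.0 ± 0.92 and KRT80 with 32.0 ± 0.83. The ranges of these 5 did not overlap. KRT10 followed with 8.48 ± 0.92, KRT79 with 5.81 ± 0.055, KRT15 with 2.20 ± 0.12, KRT17 with 1.14 ± 0.41 and KRT3 with 0.55 ± 0.098 CPM per kb. In each of the 3 TalaR-M libraries KRT19 exceeded KRT7, with 174.7 against 117.4, 532.4 against 300.0 and 161.7 against 107.9 CPM per kb in replicates 1 to 3. In TalaR-DF cells the 2 genes came close, with 46.4 ± 3.64 for KRT7 and 41.0 ± 4.17 for KRT19. Their ranges overlapped across libraries, but KRT7 exceeded KRT19 within each library. The values were 50.4 against 45.77, 43.32 against 39.08 and 45.38 against 38.12 in replicates 1 to 3.

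As a share of all tested keratin CPM per kb within a library, KRT19 differed little between replicates, also in TalaR-M replicate 2. It took 5.38%, 5.75% and 5.79% in parental cells, 15.25%, 14.62% and 15.35% in TalaR-M cells and 6.84%, 6.74% and 6.36% in TalaR-DF cells. KRT7 took 15.3% ± 0.30 in parental, 9.58% ± 1.16 in TalaR-M and 7.52% ± 0.055 in TalaR-DF cells (SD, n = 3). The share of KRT7 was thus lower in both resistant groups than in any parental library, although its level in TalaR-M cells was not. KRT8 and KRT18 together took 71.28% to 72.61% in parental, 70.3% to 75.87% in TalaR-M and 81.18% to 81.47% in TalaR-DF libraries. These shares are a description and were not tested.

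**Figure D3:**
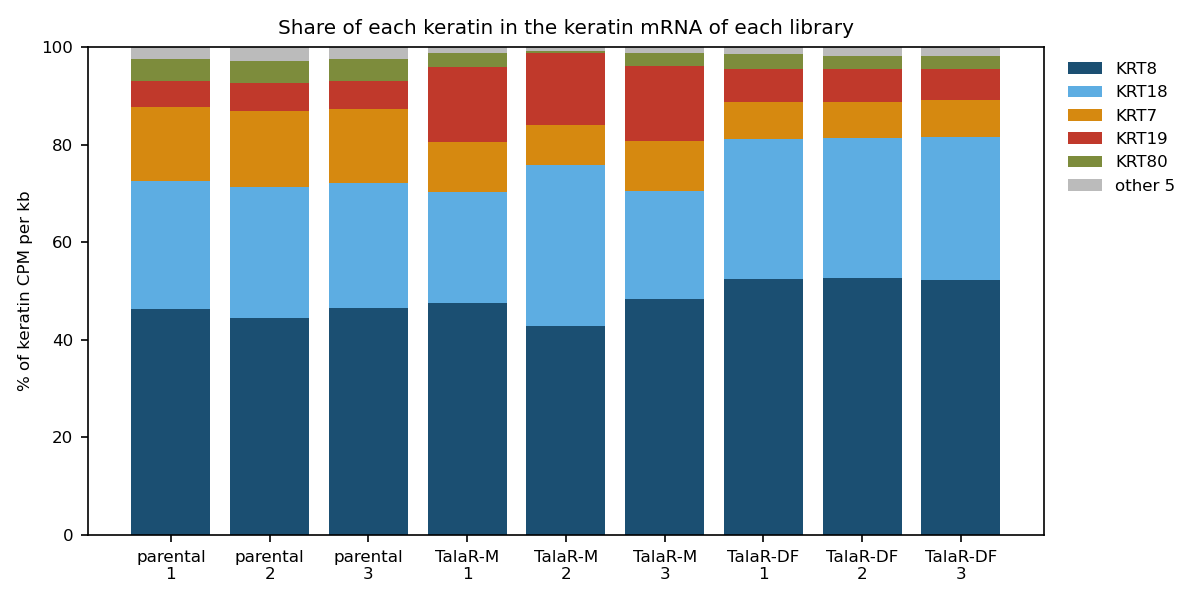
Share of each keratin in the summed keratin level of each of the 9 libraries (vertical axis, % of CPM per kb of the 10 tested keratins, horizontal axis, library). KRT19 takes 14.62% to 15.35% in the TalaR-M libraries and at most 6.84% elsewhere, and KRT7 is largest in the parental libraries.

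Ratios within a library gave the same picture of unequal change. The ratio of KRT7 to KRT8 per length was 0.334 ± 0.015 in parental, 0.207 ± 0.012 in TalaR-M and 0.143 ± 0.0016 in TalaR-DF cells, with no overlap between the 3 groups. That of KRT19 to KRT18 was 0.205, 0.215 and 0.227 in parental, 0.671, 0.442 and 0.695 in TalaR-M and 0.238, 0.235 and 0.218 in TalaR-DF cells, so that the TalaR-M libraries lay above the rest. The ratio of type I to type II keratins was 0.504 ± 0.018 in parental and 0.590 ± 0.0046 in TalaR-DF cells, and 0.644, 0.939 and 0.628 in the TalaR-M libraries. The summed level was 695.5 to 727.3 CPM per kb in parental, 1145, 3641 and 1054 in TalaR-M and 580.2 to 669.5 in TalaR-DF cells. In bulk RNA, fewer cells with a keratin and less of its RNA per cell cannot be told apart, here and in all results above.

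The type II genes and KRT18 lie in the cluster on chromosome 12, with 27 members in the table, and the other type I genes in the cluster on chromosome 17, with 28. Genes near each other in a cluster did not all follow each other. KRT15 at chr17:41513745-41522529 ends 1088 bases from KRT19 at chr17:41523617-41528308. KRT19 was high in TalaR-M cells and near the parental level in TalaR-DF cells, whereas KRT15 was near the parental level in TalaR-M and low in TalaR-DF cells, and the log2 difference between them was 3.86 ± 0.11 in parental, 6.41 ± 0.61 in TalaR-M and 5.68 ± 0.30 in TalaR-DF cells. KRT80 at chr12:52168996-52192014 lies 40506 bases from KRT7 at chr12:52232520-52252186, and both were lower in every TalaR-DF library than in any parental library. KRT79 at chr12:52821408-52834311 lies 62876 bases from KRT8, and their directions in TalaR-M cells were opposite. The other tested genes were KRT3 at chr12:52789685-52796117, KRT10 at chr17:40818117-40822614 and KRT17 at chr17:41619442-41624842. These positions are from GENCODE by gene symbol, and the table itself holds none.

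**Figure D4:**
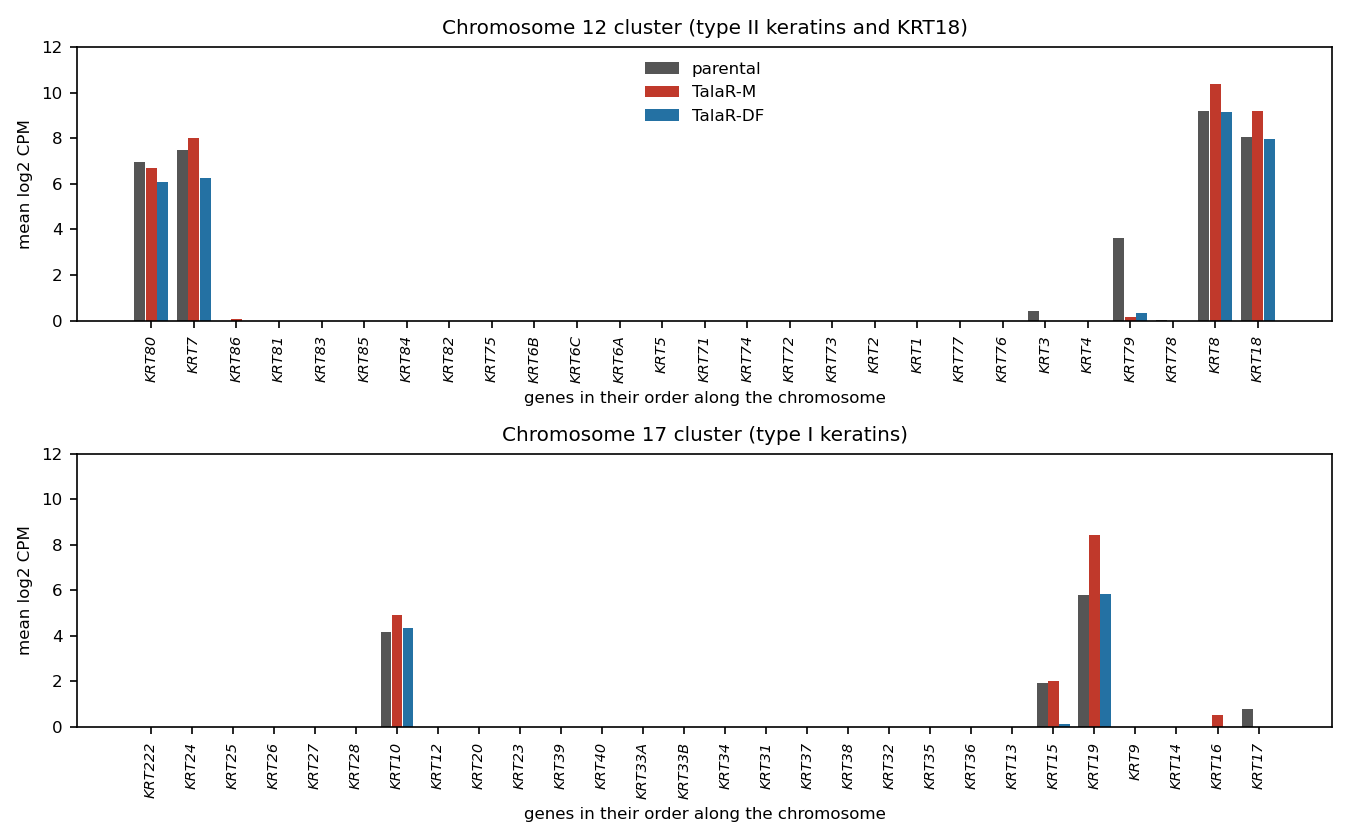
Mean level of the 55 keratin genes (vertical axis, log2 CPM, n = 3 libraries per bar) in their order along chromosomes 12 and 17 (horizontal axis, not to scale), with bars for parental, TalaR-M and TalaR-DF cells. Most genes above the limit sit near the ends of the chromosome 12 cluster and are scattered in that of chromosome 17, with genes at the limit between them.

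Genes that act with keratins were taken as 4 lists with 66 genes in the table and 43 tested. TalaR-M against parental cells gave 11 called (5 higher and 6 lower), TalaR-DF against parental cells 14 (2 higher and 12 lower) and TalaR-M against TalaR-DF cells 11 (9 higher and 2 lower), beside the 13.3%, 9.73% and 6.93% of all genes given above. Without TalaR-M replicate 2 the counts were 13, 15 and 11, beside 13.9%, 11.4% and 8.36% of all genes. The median log2 fold change of the 43 was 0.01, -0.27 and 0.24, and 0.06, -0.27 and 0.32 without that library.

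Among the 15 other intermediate filament genes, 7 were tested. VIM, which codes for vimentin, the filament of mesenchymal cells, was at 9.43, 9.35 and 9.32 log2 CPM in parental, 8.77, 10.00 and 8.55 in TalaR-M and 9.07, 8.87 and 9.04 in TalaR-DF cells. VIM was not called in any comparison (log2 fold changes -0.26, -0.37 and 0.11). Every TalaR-DF library lay below every parental library. The adjusted p of that -0.37 was 0.559 with all libraries and 0.00115 without TalaR-M replicate 2, short of 2-fold. Without that library VIM was also lower in TalaR-M than in parental cells, by a log2 fold change of -0.70 (adjusted p = 2.3e-05), short of 2-fold. Its difference between TalaR-M and TalaR-DF cells then turned from 0.11 to -0.33 (adjusted p = 0.00685). NES, the nestin gene of progenitor cells, fell in both resistant groups. It was at 8.46, 8.50 and 8.55 in parental, 5.30, 5.79 and 5.38 in TalaR-M and 6.92, 7.08 and 6.95 in TalaR-DF cells, with log2 fold changes of -3.02 (without replicate 2, -3.17) and -1.52 against parental cells and of -1.49 (without replicate 2, -1.64) between TalaR-M and TalaR-DF cells. SYNM, which codes for synemin, and BFSP1, which codes for a filament protein known from the lens, rose in TalaR-M cells against both other groups. SYNM was higher by 2.00 and 2.15 on the log2 scale than in parental and TalaR-DF cells (without replicate 2, 2.16 and 2.31), and BFSP1 by 1.65 and 1.92 (without replicate 2, 1.40 and 1.66).

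Of the 21 genes of plakins, desmosomes and hemidesmosomes, 15 were tested, and 2, 5 and 3 were called in the 3 comparisons, beside 13.3%, 9.73% and 6.93% of all genes. The 2 of 15 in TalaR-M against parental cells are the same share as over all genes. DSP, which codes for desmoplakin, the plakin that ties keratin to desmosomes, was at 6.68, 6.72 and 6.66 log2 CPM in parental, 6.58, 4.57 and 6.66 in TalaR-M and 4.24, 4.48 and 4.39 in TalaR-DF cells. TalaR-DF cells were below parental cells by a log2 fold change of -2.32 (adjusted p = 0.0128), and TalaR-M replicate 2 lay near the TalaR-DF values while the other TalaR-M replicates lay near the parental ones. TalaR-M cells differed from TalaR-DF cells by 1.57 (adjusted p = 0.0784), and by 2.25 without replicate 2 (adjusted p = 3.42e-09). JUP, the plakoglobin gene, fell in both resistant groups, by log2 fold changes of -2.21 in TalaR-M (without replicate 2, -2.23) and -2.75 in TalaR-DF cells. PKP2, a plakophilin gene, rose in both, by 2.74 in TalaR-M (adjusted p = 0.00708; without replicate 2, 3.46) and 2.54 in TalaR-DF cells. TalaR-M and TalaR-DF cells differed in PKP2 by 0.20 (adjusted p = 0.802), and by 0.93 without replicate 2 (adjusted p = 0.000118), short of 2-fold.

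PPL, the periplakin gene, was low in TalaR-DF cells, by a log2 fold change of -2.31 against parental cells, and was higher in TalaR-M than in TalaR-DF cells by 1.75 (without replicate 2, 2.30). ITGB4, a subunit of the hemidesmosomal integrin, was higher in TalaR-M than in TalaR-DF cells by 1.43 (without replicate 2, 1.33). Against parental cells ITGB4 differed by -0.06 in TalaR-M (without replicate 2, -0.16) and by -1.49 in TalaR-DF cells (adjusted p = 0.00053). PKP3, another plakophilin gene, was higher in TalaR-M than in TalaR-DF cells by 1.07 (adjusted p = 0.0457), which was 0.72 and short of 2-fold without replicate 2. Of the 8 tested keratin-binding genes, FAM83H, whose protein recruits casein kinase to keratin filaments, was called against parental cells, with log2 fold changes of -1.04 in TalaR-M cells (without replicate 2, -0.94 and short of 2-fold) and -1.39 in TalaR-DF cells.

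**Figure D5:**
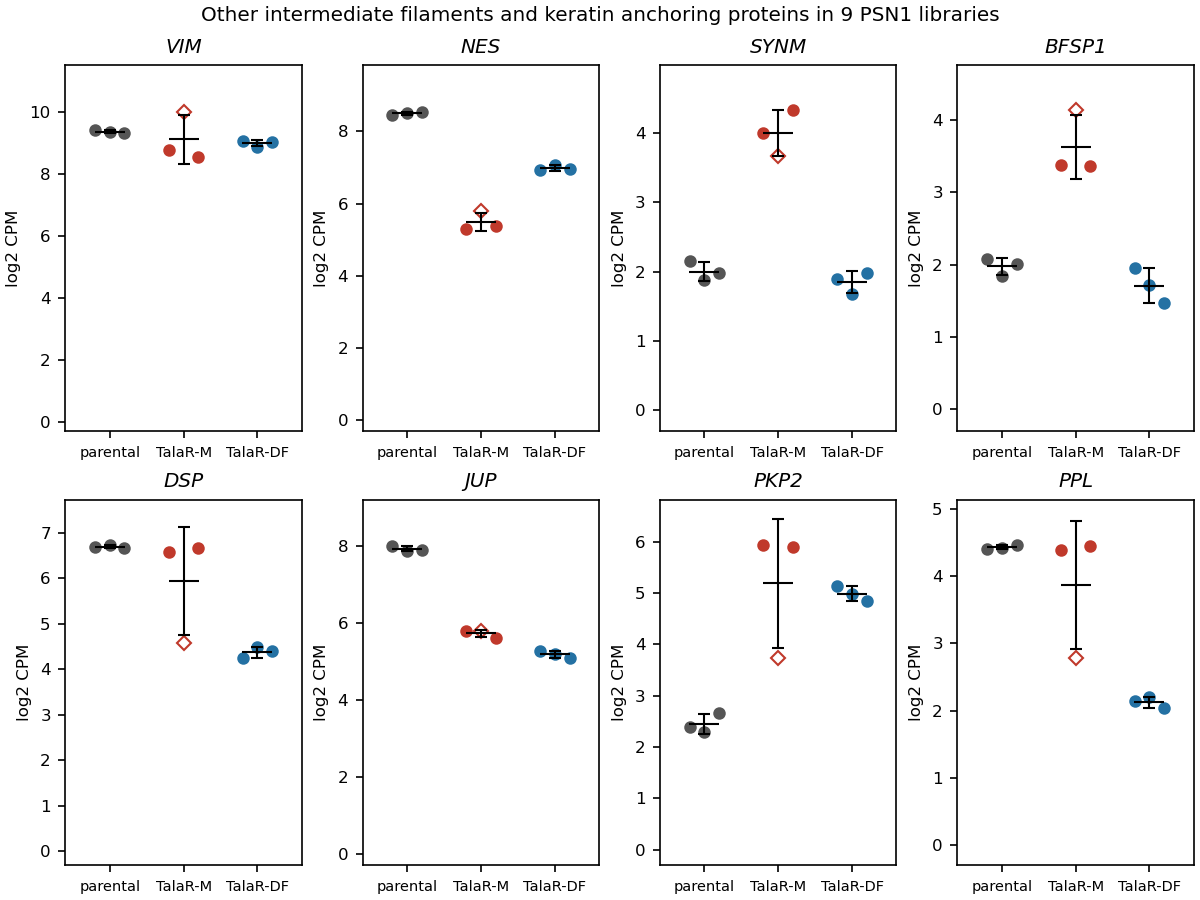
Level of other intermediate filament genes and of genes that anchor keratin filaments (vertical axis, log2 CPM) in parental, TalaR-M and TalaR-DF cells (horizontal axis). Points are libraries, the open diamond is TalaR-M replicate 2, and bars give the mean and SD (n = 3). DSP and PPL are near the parental level in TalaR-M replicates 1 and 3 and low in TalaR-DF cells, while JUP is low in all 6 resistant libraries.

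Of the 21 transcription and splicing factors of epithelial cells, 13 were tested. In the 3 comparisons 5, 7 and 5 of them were called, 2, 1 and 4 higher and 3, 6 and 1 lower, beside the 13.3%, 9.73% and 6.93% of all genes. FOXA2, a factor of endodermal epithelia, fell in both resistant groups. It was at 4.61, 4.63 and 4.67 log2 CPM in parental, 1.16, 1.45 and 0.89 in TalaR-M and 2.81, 2.35 and 2.40 in TalaR-DF cells, with log2 fold changes of -3.47 (without replicate 2, -3.61) and -2.12 against parental cells. FOXA1, its paralog, moved the other way and rose in both, by 1.86 in TalaR-M (without replicate 2, 2.33) and 1.66 in TalaR-DF cells. HNF4A, another factor of endodermal epithelia, was at 2.99, 2.86 and 3.39 in parental cells and at the limit in all 6 resistant libraries, at least 8.45-fold lower against the limit of 1 CPM. It entered the test only through the parental libraries, so that its change is a description, although the counts of called genes include it. ESRP2, a splicing factor of epithelial cells, fell by log2 fold changes of -1.91 in TalaR-M (without replicate 2, -1.62) and -3.75 in TalaR-DF cells and was higher in TalaR-M than in TalaR-DF cells by 1.84 (without replicate 2, 2.13). Its partner ESRP1 was at the limit in all 9 libraries. TFAP2A, a factor of surface epithelium, and EHF, an epithelial ETS factor, were higher in TalaR-M than in TalaR-DF cells by 2.16 and 1.70 (without replicate 2, 2.36 and 2.18), and EHF exceeded its parental level in TalaR-M cells by 2.04 (without replicate 2, 2.52). TFAP2A differed from its parental level by 0.21 in TalaR-M cells (adjusted p = 0.523), or 0.41 without replicate 2. In TalaR-DF cells that difference was -1.95 (adjusted p = 0.000765).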

How the data were processed

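RNAseq libraries were made by the authors from poly(A) RNA with a stranded kit. The values they deposited are log2 CPM with a prior count of 1 and with every value under 0 set to 0, a unit read from the values, since the unlogged values of a library are whole multiples of the value of 1 read (100% of values within 0.01 of a read). Reads were recovered for depth, for the read counts given and for the values per length with their shares and ratios, where a gene at the limit counted as 0. The tests used the deposited values. The submitters' processing notes name hg38, and the aligner, counter and annotation are not given in the sources used here. The column names "maintain" and "withdraw" stand for TalaR-M and TalaR-DF, and 0 columns had no sample. Only the PSN1 table of these 3 groups was used.

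Genes above 1 CPM in at least 3 of 9 libraries were tested with limma 3.58.1 (R 4.3.3), with a mean-variance trend, 3 groups in 1 model and Benjamini-Hochberg adjustment over 12471 genes. The script was tested on simulated data. Intervals are for 95% confidence. A fold against a group at the limit is a lower bound at 1 CPM. Positions and transcript lengths came from GENCODE 44 by symbol (88.3% of rows matched). Every keratin was named, and per partner list and comparison at most the 3 called genes with the largest change, with VIM and DSP always. ESRP1, FOXA1 and the fibroblast markers were named outside this rule, after their values were seen. Keratins, lists and tests were chosen with earlier results of these data known. Alternatives covered the scaling, pseudocount, filter, thresholds, groups fitted, library weights, variance trend, replicate block and each library left out.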

Additional observations from a re-analysis of the deposited data

How the results depend on the processing

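Counts of called keratins were 2 and 3 for TalaR-M and TalaR-DF against parental cells and 3 between the resistant groups. A pseudocount of 1 CPM gave 4 in the first comparison, with KRT3 and KRT17 added, and 5 in the second. Values at the limit count as 0 CPM in that setting, so that KRT3 and KRT17 had to reach 2-fold against parental cells. Nothing is read from this rise. The second comparison also had 5 by adjusted p alone and at 1.5-fold. The third had 1 when only its groups were fitted, with KRT7 (adjusted p = 0.098) and KRT19 (0.0549) lost. Leaving out single libraries gave 2 to 3 in each comparison. Of the 11, 14 and 11 called partners, a pseudocount of 8 CPM left 7 in the first and 2 in the third, fitting only the groups compared gave 7 in the third, and leaving out single libraries gave 10 to 13, 10 to 15 and 7 to 11, the lowest without TalaR-DF replicate 1. The share of all genes called was taken only with all libraries and without TalaR-M replicate 2. No result about keratins or partners is therefore read from counts under other settings, here and below.

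Signs turned in 6 keratin changes, none of them called. For TalaR-M against parental cells, KRT15 was at -0.18 with library weights, -0.14 with the length and GC trend removed and -0.14 to 0.26 with single libraries left out, and KRT80 at -0.44 to 0.0071 with single libraries left out. For TalaR-DF against parental cells, KRT19 was at -0.014 after rescaling and -0.053 to 0.079 with single libraries left out, KRT18 at 0.059 with the trend removed, and KRT8 at 0.14 with the trend removed and -0.072 to 0.028 with single libraries left out. Between the resistant groups, KRT79 was at -0.34 to 0.15. KRT15 and KRT80 turned without TalaR-M replicate 2, KRT19 without TalaR-DF replicate 1 and KRT79 without TalaR-DF replicate 2. The cause was not tested.

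KRT7 in TalaR-DF against parental cells was no longer called after rescaling (adjusted p = 0.0763) or without a filter (0.0956), and between the resistant groups it was lost without any single TalaR-DF library (0.0517 to 0.0655). With a pseudocount of 8 CPM, KRT15 was no longer 2-fold in either comparison with TalaR-DF cells. KRT8 in TalaR-M against parental cells was called without TalaR-M replicate 1 (adjusted p = 0.0418) or replicate 3 (0.0342). Of 621 values of single keratins under alternatives, 252 with a library left out and 328 others kept their direction and side of the threshold.

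With the replicate number as a block the counts were 2, 2 and 3 keratins and 11, 14 and 9 partners, and KRT7 in TalaR-DF against parental cells was lost (adjusted p = 0.0689). Libraries of the same number correlated in their deviations at -0.417 to 0.217, and not every library correlated best with its own number. These values thus show no pairing by number. They cannot exclude one, since TalaR-M replicate 2 enters the group mean from which all TalaR-M deviations were taken. Depth limits the low keratins, where 1 CPM is 7.54 to 15.7 reads.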
